A study of Mus musculus with 5 samples.

Results

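Genes whose variants cause hearing loss in people were followed in mouse spiral ganglion neurons, whose fibres link the hair cells of the cochlea to the brainstem. The set was a fixed list of 8 genes, named with earlier results of these data known: Tmprss3, Coch, Dfnb59, Wfs1, Opa1, Aifm1, Timm8a1 and Slc52a2. All 8 were among the 14715 genes measured, and their levels were read in all 1954 cells. Captured molecules are told apart by a random tag, the unique molecular identifier or UMI, and a level is the mean number of UMIs per 10000 UMIs of a cell.

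The study compared neurons with and without an embryonic deletion of Runx1, a transcription factor, and its title names the diversity of auditory sensory neurons as the subject. The CKO group was bhlhb5-Cre/+; Ai14/+; Runx1F/F, with 3 samples, and the control group was bhlhb5-Cre/+; Ai14/+, with 2 samples. Both groups therefore carry the Cre transgene and the tdTomato reporter, and deletion and reporter alike depend on cells in which bhlhb5-Cre was active. Mice were of both sexes and 30 to 33 days old, and tdTomato-positive cells were sorted before 10X Genomics 3' libraries were prepared.

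Cells could be tied to a genotype but to no sample, so each genotype is 1 pool: 884 CKO cells (37482099 UMIs, median 44120.5) and 1070 control cells (40734464 UMIs, median 38085). No test between genotypes was possible. Intervals below are exact 95% intervals for a count or a share and cover counting error only, not the spread between animals or the amplification of the library. Barcodes run in alphabetical order and start over 4 times, which leaves 5 stretches of columns, of which 1, 3 and 4 hold CKO cells and 2 and 5 hold control cells. Stretch means are given as values within a pool and not as replicates, since no source used here says which sample a stretch is. In all, 1 barcode occurs in both genotypes.

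Cells were sorted into classes by the level of 1 gene at a time: type II where Dupd1 reached 1, otherwise type Ic where Lypd1 reached 3, otherwise type Ia where Calb2 reached 150, and type Ib for the remainder. This gave 152 type II, 132 type Ic, 384 type Ia and 216 type Ib cells in CKO, and 119, 314, 242 and 395 cells of these classes in control. The Dupd1 and Lypd1 limits fell in sparsely filled ranges, with 3 CKO and 5 control cells between 0.5 and 2 for Dupd1 and 20 CKO and 26 control cells between 1.5 and 6 for Lypd1. The Calb2 limit did not, since 458 CKO and 335 control cells lay between 75 and 300, so types Ia and Ib are ranges of Calb2 and not separate groups of cells.

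Markers outside the rule followed the class names in part. Th, the enzyme that starts catecholamine synthesis, averaged 3.98 in CKO type II cells and 5.09 in control type II cells, against at most 0.0133 in any type I class. Pou4f1, a type Ic marker, averaged 1.03 in CKO type Ic cells and 1.17 in control type Ic cells, above the other classes of the same genotype. Calb1, a type Ib marker, averaged 2.56 in type Ib and 1.90 in type Ia cells of CKO. In control it averaged 1.31 and 0.283 in these classes, so Calb1 set the leftover class less apart from type Ia in CKO. Ttn, also a type Ib marker, averaged 0.792 in type Ib and 0.0954 in type Ia cells of CKO, and 1.27 and 0.0528 in control. Of 3 type Ia markers, B3gat1 was highest in type Ia in both genotypes, but Pcdh20 and Rxrg were highest in type II. Pcdh20 averaged 0.334 in type Ia and 1.995 in type II cells of CKO, and 0.438 and 2.25 in control. Rxrg averaged 0.466 and 0.628 in these classes of CKO, and 0.507 and 0.565 in control. Median depth was 27102 UMIs in CKO and 25326 in control type II cells, and 47501 in CKO and 39393 in control type I cells. How the authors treated doublets is not given in the sources used here, and none were removed for this work.

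Runx1 RNA itself averaged 2.005, 1.46 and 1.44 in CKO stretches 1, 3 and 4, against 1.34 and 1.14 in control stretches 2 and 5. A 3' assay reads the end of the transcript and the labels do not place the floxed part, so these values check nothing about the deletion. CKO stretch 4 stood apart from the other CKO stretches. Type Ia cells made up 12.1% of it, against 47.0% and 53.2% of CKO stretches 1 and 3 and 10.8% and 32.3% of control stretches 2 and 5. Its type Ia cells held a mean of 0.0816 Runx1 UMIs per 10000, against 2.04 and 1.47 in those of CKO stretches 1 and 3 and, in control, 0.271 for stretch 2 and 0.209 for stretch 5. Values without stretch 4 are therefore given for Tmprss3 in type II, Wfs1 over all neurons and in type Ic, and Timm8a1 in type Ic. Other differences between genotypes are given without this check. A further 2 cells, both in CKO stretch 1 and in class Ib, held almost no neuronal RNA: the summed level of 9 neuronal markers was 1.93 and 2.86 in them, against 35.0 in the next lowest cell and a median of 186.

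The 8 genes belong to different parts of the hearing pathway. Tmprss3 encodes a membrane-anchored serine protease needed by cochlear hair cells, and Coch encodes cochlin, a matrix protein secreted by fibrocytes of the spiral ligament and limbus. Dfnb59, now named Pjvk, encodes pejvakin, a protein of the gasdermin family tied to peroxisomes in hair cells and auditory neurons. Wfs1 encodes wolframin, a membrane protein of the endoplasmic reticulum that is altered in Wolfram syndrome and in low-frequency hearing loss. Opa1, Aifm1 and Timm8a1 act in mitochondria and their human counterparts are linked to auditory neuropathy, in which the nerve rather than the hair cell can fail. Slc52a2 carries riboflavin, the vitamin precursor of flavin cofactors, into cells.

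Signal was spread very unevenly over cells. Wfs1, Opa1, Aifm1 and Timm8a1 were seen in 82.9%, 97.6%, 85.2% and 89.0% of the 1954 cells. Slc52a2 gave 678 UMIs in 578 cells, of which 492 held 1 UMI each. Tmprss3 gave 288 UMIs in 159 cells, Coch 434 UMIs in 28 cells, and Dfnb59 6 UMIs in 6 cells. For Coch, 406 of the 434 UMIs sat in 1 cell, so that its pool mean describes that cell and no class of neurons.

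Since Runx1 was the deleted gene, the 250 bases before each annotated start of the members were searched for TGTGGT, the core letters that RUNX proteins are known to bind, or its reverse complement ACCACA. RefSeq windows on GRCm38.p6 were matched for 7 members, with 8 windows in all because Tmprss3 has a pair of starts. The letters were in 3 of these 8 windows, against 14.05% of 32851 windows of the same length over all genes. Those 3 matches are printed 5′ to 3′ on the strand of the gene with 12 bases on each side and the searched letters in capitals, to show which member starts hold them:
Tmprss3, second start, chr17:31197888-31197917, minus strand: tctgcgattttcTGTGGTctcgagaaagtt
Coch, chr12:51593124-51593153, plus strand: aagtccccggacACCACAggcgaccttcac
Dfnb59, chr2:76650094-76650123, plus strand: agccctttcaacTGTGGTctcctcaaggac
The matches began 156, 205 and 167 bases before the start of Tmprss3, Coch and Dfnb59. The Dfnb59 window and the second Tmprss3 window lie wholly inside the spans given below for these genes, which follow GENCODE. The bases before the GENCODE start of Dfnb59 were not searched. The first start of Tmprss3 and the windows of Wfs1, Opa1, Aifm1 and Timm8a1 held no match. A match of 6 letters is a description of the sequence, and no binding was measured.

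Tmprss3 RNA was a type II signal in both genotypes and its level was lower in the CKO pool. The gene spans bases 31179265 to 31198977 of chromosome 17 (minus strand; GRCm38, GENCODE annotation). In CKO, 114 of its 115 UMIs were in type II cells, and in control 165 of 173. A UMI was found in 47.4% of CKO type II cells (72 of 152, interval 39.2 to 55.6) and in 68.9% of control type II cells (82 of 119, 59.8 to 77.1). The share in type I cells was 0.137% in CKO (1 of 732) and 0.421% in control (4 of 951). This was so although type I cells were the deeper ones. Most of these type I cells also held type II markers, as given below, so the share does not measure free RNA. No UMI was seen in 384 CKO type Ia cells, where 3 counts would allow a share of 0.781% of cells with a UMI, nor in 132 CKO type Ic cells (2.27%) or 314 control type Ic cells (0.955%). These limits are for cells with a UMI and not for cells that express the gene.

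Of the 5 type I cells with Tmprss3, 4 also held at least 3 of the 5 type II markers. In control stretch 2, the 3 type Ib cells with 1, 2 and 4 Tmprss3 UMIs held 5, 30 and 11 UMIs of Plk5 and 12, 43 and 64 UMIs of Hspb1, both markers of type II. Their Dupd1 level was between 0 and 0.601, under the limit for type II. In the 1 CKO type Ib cell with a Tmprss3 UMI the Dupd1 level was 0.721, also under the limit, and the 1 control type Ia cell held no Dupd1.

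Within type II neurons, Tmprss3 averaged 0.274 UMIs per 10000 in CKO and 0.542 in control. The stretch means were 0.181, 0.344 and 0.291 in CKO stretches 1, 3 and 4, against 0.594 and 0.463 in control stretches 2 and 5. Every CKO stretch lay below both control stretches, as was so for 12.6% of the 3816 genes with a mean of 0.5 or more in either type II pool, a minimum that Tmprss3 reached only through control. Stretch 4, which resembled control in its class shares, lay with the other CKO stretches here. The ratio of UMI rates was 0.505 (0.394 to 0.645), and the log2 ratio of the means plus 0.1 was -0.78, or -0.79 without stretch 4 and -1.04 without stretch 3. After each cell was thinned to 10000 UMIs, 21.1% of CKO type II cells (14.9 to 28.4) and 42.0% of control type II cells (33.03 to 51.4) held a Tmprss3 UMI.

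Fewer CKO type II cells held several Tmprss3 UMIs. Cells with 3 or more Tmprss3 UMIs were 9 of 152 in CKO (5.92%) and 18 of 119 in control (15.1%). Type II cells with little glial RNA, under 5 UMIs per 10000 of 8 Schwann and satellite cell markers, averaged 0.290 in 91 CKO cells and 0.558 in 72 control cells, so the difference was of similar size there. Other type II genes moved to unequal extents in the same cells. Prph, a neurofilament-like protein of type II neurons, averaged 0.838 in CKO and 2.83 in control, Plk5 averaged 3.51 and 4.63 in CKO and control, and Ngfr, a neurotrophin receptor, averaged 8.06 and 8.95. Hspb1, a small heat shock protein, averaged 10.2 in CKO and 9.96 in control. Their part in the Tmprss3 value was not tested.

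**Figure D1:**
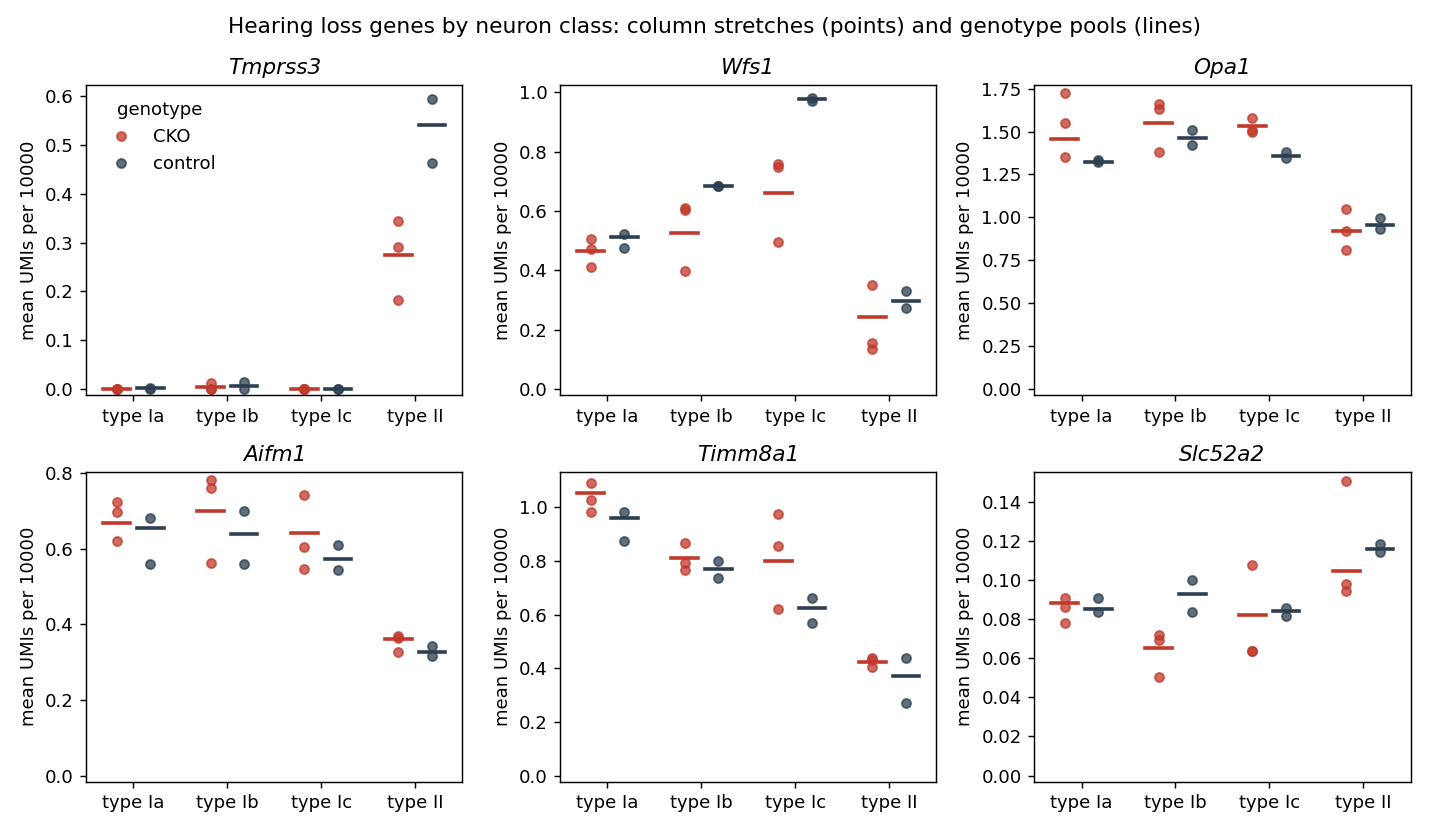
Mean UMIs per 10000 of 6 members (y axis) in each neuron class (x axis), with points for column stretches, lines for the mean of all cells of a genotype, and CKO in red left of control in dark blue. Tmprss3 is close to 0 outside type II, where the CKO line is at 0.274 and the control line at 0.542, and Wfs1 in type Ic lies at 0.659 in CKO and 0.978 in control.

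Type II over type I, the log2 ratio for Tmprss3 was 1.89 in CKO and 2.65 in control. On UMI rates the ratio was 908 in CKO (160 to 36187, with 1 UMI in type I) and 254 in control (126 to 599). Over the 20 pools of class by stretch, the genes whose log2 level ran most nearly with Tmprss3 were Th, Ablim1, an actin-binding protein, and Vamp2, a synaptic vesicle protein, each with Pearson r of 0.98. These 3 were looked up after the values of Tmprss3 had been seen, and since its type I pools were all near 0 the likeness rests on the contrast with the 5 type II pools.

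Coch was detected in 18 CKO cells with 424 UMIs and in 10 control cells with 10 UMIs. The gene spans bases 51593341 to 51605771 of chromosome 12 (plus strand). The CKO mean was 0.116 and the control mean 0.00271, a log2 ratio of 1.07, but 1 CKO cell of stretch 1 held 406 of the UMIs, or 93.5% of all Coch UMIs in the series. Without that cell CKO held 18 UMIs in 17 cells, the means were 0.00509 in CKO and 0.00271 in control, and the log2 ratio was 0.03. The ratio of UMI rates was then 1.96 (0.857 to 4.75), an interval that includes equal rates.

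That cell was placed in type Ib only because it reached none of the class limits, and it held little neuronal RNA. It held 41526 UMIs and 6236 genes, close to the series median of 40354 UMIs and 6741.5 genes. Among neuronal markers it held 0 UMIs of Snap25 and of Slc17a7, the vesicular glutamate transporter, and 1 UMI each of Tubb3 and Nefh. It held 155 UMIs of Emilin2, 73 of Apod and 46 of Cp, which are on the list for fibroblasts and fibrocytes of limbus and spiral ligament, but 0 of Col3a1 and Dcn on the same list. It also held 28 UMIs of Pou3f4, a transcription factor of cochlear mesenchyme that is itself a deafness gene, 689 of Ptn, a secreted growth factor, and 474 of Apoe. The remaining 27 cells with Coch held at most 2 UMIs each, in every class and in both genotypes except CKO type Ic.

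**Figure D2:**
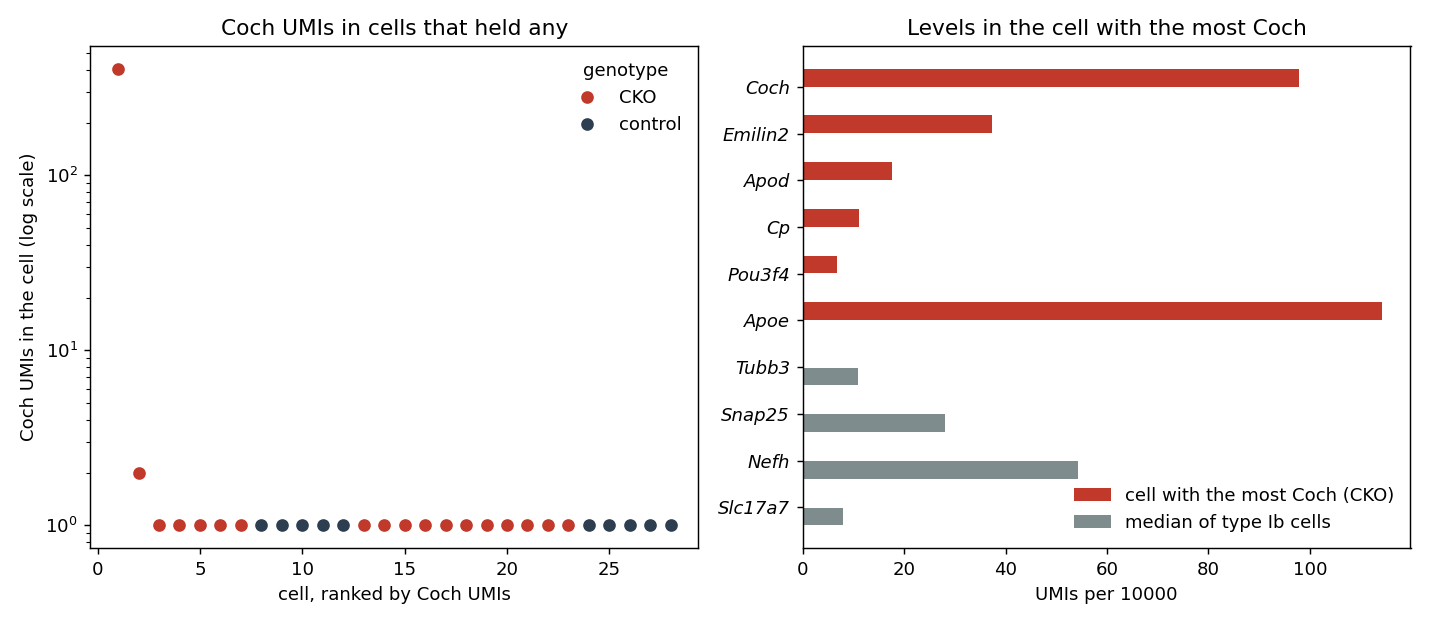
Left, Coch UMIs on a log axis in each of the 28 cells that held any, ranked, CKO in red and control in dark blue: 1 CKO cell holds 406 and the rest 1 or 2. Right, UMIs per 10000 of matrix, glial and neuronal genes in that CKO cell (red) and the median of type Ib cells (grey), in which Tubb3, Snap25, Nefh and Slc17a7 are seen and Coch, Emilin2 and Apoe have a median of 0.

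Dfnb59 was close to the limit of detection in auditory neurons of both genotypes. It spans bases 76648476 to 76658556 of chromosome 2 (plus strand), and 4 CKO cells of 884 (0.452%, interval 0.123 to 1.15) and 2 control cells of 1070 (0.187%, 0.0226 to 0.674) held 1 UMI each. The CKO cells were 2 of type Ia and 2 of type II, and both control cells were of type Ic. The ratio of UMI rates was 2.17 (0.312 to 24.0), so no difference was detectable at this depth. In 119 control type II cells no UMI was seen, and 3 counts would allow a share of 2.52% of cells with a UMI.

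**Figure D3:**
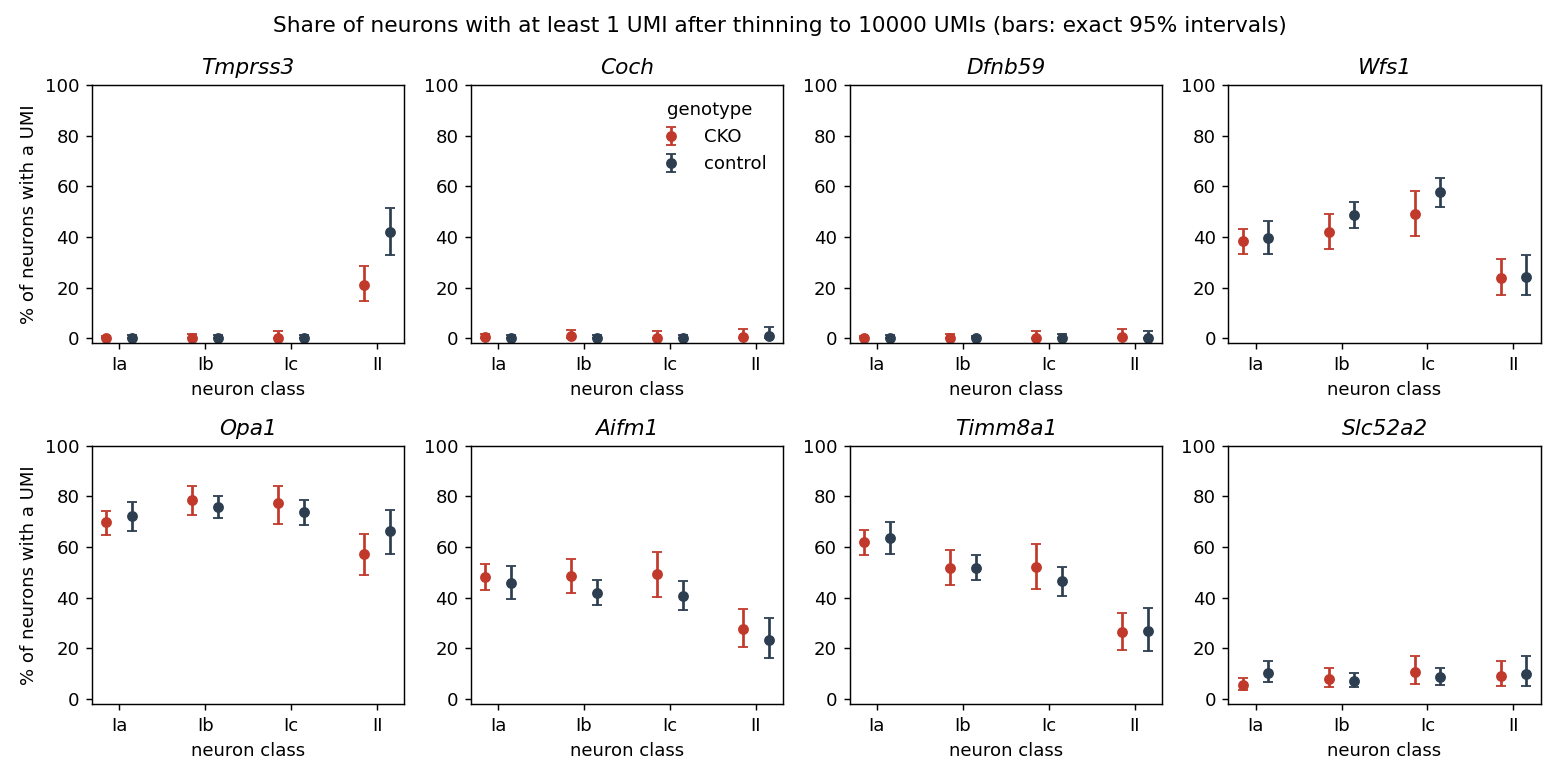
Share of neurons with at least 1 UMI of each of the 8 members (y axis, %) by neuron class (x axis) after every cell was thinned to 10000 UMIs, with exact 95% intervals, CKO in red left of control in dark blue. Coch and Dfnb59 stay at or below 0.926% in every pool, Tmprss3 is at 21.1% in CKO and 42.0% in control type II cells, and Opa1 is at 57.2% or more in every pool.

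Wfs1 followed the type I classes, with its level highest in type Ic and lowest in type II, and it was lower in the CKO pool. The gene spans bases 36966104 to 36989205 of chromosome 5 (minus strand). In CKO it averaged 0.463, 0.526, 0.659 and 0.243 in types Ia, Ib, Ic and II, and in control 0.511, 0.684, 0.978 and 0.296. The order of these class means was the same in both genotypes, with a narrower range in CKO, but in CKO stretch 1 type Ib, at 0.396, was below type Ia, at 0.410. Over all neurons it averaged 0.470 in CKO and 0.688 in control, with 1791 and 2817 UMIs, a UMI rate ratio of 0.691 (0.651 to 0.733) and a log2 ratio of -0.47.

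By stretch, Wfs1 over all neurons was 0.377, 0.516 and 0.573 in CKO stretches 1, 3 and 4, against 0.715 and 0.666 in control stretches 2 and 5, with no overlap. Of 3784 genes at a mean of 0.5 or more in either pool, a minimum that Wfs1 reached only through control, 13.5% had CKO stretches that all lay below both control stretches. In type Ic the stretch means were 0.495, 0.747 and 0.757 in CKO and 0.982 and 0.971 in control, again apart, and 12.5% of 3845 genes were apart in this direction. The log2 ratio in type Ic was -0.51, or -0.65 without stretch 4 and -0.34 without stretch 1. In type Ib it was -0.32 (0.396, 0.610 and 0.602 in CKO stretches, 0.685 and 0.682 in control stretches), and 16.6% of 3805 genes were apart this way. It was -0.15 without stretch 1 and -0.12 with the class limits halved.

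In type Ia the Wfs1 stretches overlapped, with 0.410, 0.507 and 0.472 in CKO and 0.474 and 0.522 in control, and the log2 ratio was -0.12. In type II they overlapped as well, and the log2 ratio of -0.21 became 0.01 without stretch 1. CKO held more type Ia cells, the type I class with the least Wfs1, and with equal weight for the 4 classes the log2 ratio over all neurons was -0.32. Without stretch 4 it was -0.52 and without stretch 1 -0.32.

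Type Ia over type Ic, the log2 ratio for Wfs1 was -0.43 in CKO and -0.82 in control, and type Ia was the lower class in each of the 5 stretches. In control the 4 classes had separate stretch ranges, while in CKO the ranges of all 3 type I classes overlapped each other. Across type I neurons ranked by Calb2 in 4 bins of about equal size, low to high, Wfs1 averaged 0.678, 0.469, 0.456 and 0.465 in CKO and 0.941, 0.810, 0.693 and 0.503 in control. The genotypes were closest in the highest bin and furthest apart in the second, but the bins are not matched: the median Calb2 level of the lowest bin was 17.3 in CKO and 1.17 in control. The genes with the pattern most like Wfs1 over the 20 pools of class by stretch were Kcnab2, a potassium channel subunit, Camta2, a transcription activator, and Faim2, an inhibitor of cell death, each with Pearson r of 0.95. Kcnab2 averaged 3.63 in CKO type Ic cells and 5.43 in control type Ic cells, and 1.08 and 1.47 in type II cells of CKO and control.

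**Figure D4:**
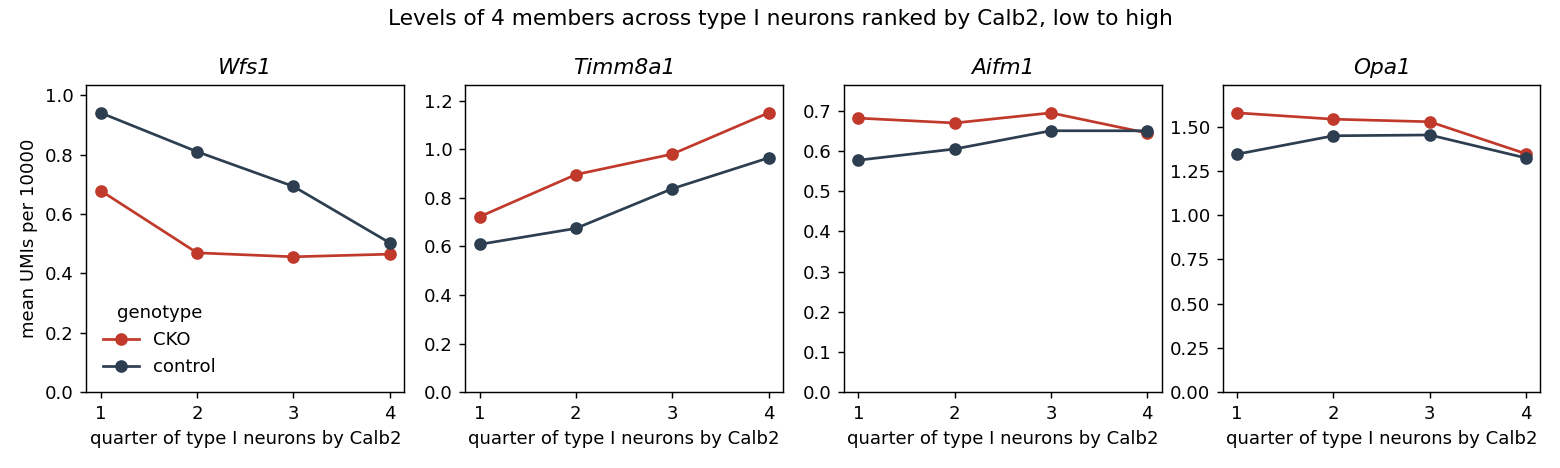
Mean UMIs per 10000 of Wfs1, Timm8a1, Aifm1 and Opa1 (y axes) in 4 bins of type I neurons ranked by Calb2 from low to high within each genotype (x axis), CKO in red and control in dark blue. Wfs1 is lower toward high Calb2, from 0.941 in the first to 0.503 in the last control bin, and Timm8a1 is higher, from 0.609 to 0.964, while Opa1 stays between 1.32 and 1.58 in all 8 bins.

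The mitochondrial members were present in every class and lower in type II neurons. Timm8a1, a chaperone that passes membrane proteins to the inner mitochondrial membrane and is altered in a human deafness and dystonia syndrome, spans bases 134537256 to 134541865 of chromosome X (minus strand). It averaged 1.05, 0.813, 0.800 and 0.425 in CKO types Ia, Ib, Ic and II, and 0.960, 0.772, 0.624 and 0.373 in the same control classes. In control its order among the type I classes was the reverse of that of Wfs1, in both stretches. In CKO type Ia was the highest class in each stretch, but type Ic lay above type Ib in stretch 1 (0.976 and 0.867) and stretch 3 (0.855 and 0.791), and below it only in stretch 4 (0.622 and 0.765). The log2 ratio of type Ia over type Ic was 0.36 in CKO and 0.55 in control. The stretch ranges of all 4 classes were separate in control, and in CKO only those of types Ib and Ic overlapped. The CKO ratio was 0.17 without stretch 4 and also 0.17 without cells carrying glial RNA, and the control ratio was 0.69 without stretch 2 and 0.35 without stretch 5. Across the Calb2 bins, low to high, Timm8a1 averaged 0.722, 0.896, 0.980 and 1.15 in CKO and 0.609, 0.674, 0.837 and 0.964 in control.

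Between genotypes Timm8a1 was 0.849 in CKO and 0.727 in control over all neurons, a log2 ratio of 0.20 and a UMI rate ratio of 1.20 (1.14 to 1.26). The stretches overlapped, with 0.912, 0.855 and 0.692 in CKO stretches 1, 3 and 4, against 0.678 and 0.767 in control stretches 2 and 5. CKO held more type Ia cells, the class with the most Timm8a1, at 43.4% of cells against 22.6% in control. Within classes the log2 ratio was 0.12 in type Ia, 0.07 in type Ib and 0.15 in type II. After thinning to 10000 UMIs it was -0.004 in type Ia and -0.12 in type II. In type Ic the log2 ratio was 0.31, or 0.51 without stretch 4 and 0.14 without stretch 1. There CKO stretch 4 lay at 0.622, between control stretch 2 at 0.662 and control stretch 5 at 0.570, while CKO stretches 1 and 3 lay at 0.976 and 0.855. The genes most like it in pattern were Arl3, a small GTPase, Tomm5, a subunit of the outer membrane import pore, and Mpc2, a subunit of the pyruvate carrier, with Pearson r of 0.96, 0.96 and 0.95.

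Aifm1, a flavoprotein of the intermembrane space that supports respiratory chain assembly and can signal cell death, spans bases 48474944 to 48513563 of chromosome X (minus strand). It averaged 0.669, 0.700, 0.642 and 0.361 in CKO types Ia, Ib, Ic and II, and 0.655, 0.639, 0.572 and 0.326 in the same control classes. The stretch ranges of the 3 type I classes overlapped in both genotypes, and type II stood lower than each of them, at 0.364, 0.369 and 0.326 in CKO stretches and 0.316 and 0.342 in control stretches. The log2 ratio of CKO over control was 0.06 over all neurons, with overlapping stretches. Tspan3, Smim13 and Atpaf1, the last an assembly factor of ATP synthase, were most like it in pattern with Pearson r of 0.96.

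Opa1, the GTPase that fuses inner mitochondrial membranes, spans bases 29579334 to 29654884 of chromosome 16 (plus strand). It averaged 1.46, 1.55, 1.53 and 0.918 in CKO types Ia, Ib, Ic and II, and 1.32, 1.46, 1.36 and 0.957 in control. Its type I stretch means lay between 1.32 and 1.73 and its type II stretch means between 0.808 and 1.05, with no overlap. In type Ic the CKO stretches, at 1.496, 1.51 and 1.58, lay above the control stretches, at 1.34 and 1.38, and 6.4% of genes were apart in this direction. In type Ia they were also apart, by a small margin, at 1.55, 1.35 and 1.73 in CKO and 1.33 and 1.32 in control, with 6.76% of genes apart this way. The log2 ratios were 0.16 in type Ic and 0.13 in type Ia, against 0.05 over all neurons, and -0.02 in type Ia after thinning to 10000 UMIs.

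Slc52a2 was thin in every class. It spans bases 76538832 to 76544608 of chromosome 15 (plus strand). It averaged 0.0881, 0.0651, 0.0823 and 0.105 in CKO types Ia, Ib, Ic and II, and 0.0853, 0.0929, 0.0841 and 0.116 in control. A UMI was found in 31.1% of CKO cells (28.1 to 34.3) and 28.3% of control cells (25.6 to 31.1), and in 7.58% and 8.69% of CKO and control cells after thinning. The ratio of UMI rates over all neurons was 0.977 (0.838 to 1.14). No class pair differed by 2-fold, and the intervals of the thinned shares overlapped between all 4 classes of a genotype. At full depth the CKO shares were 36.2% in type Ia (31.4 to 41.2) and 23.1% in type Ib (17.7 to 29.4). Median depth in these classes was 50506 and 41767 UMIs. After thinning the shares were 5.73% and 7.87%, from 22 and 17 cells, so an even level over the classes is not shown.

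No member that passed the mean minimum was 2-fold apart between genotypes, and few genes of any kind were. Over all neurons 4 of the 8 members passed the mean of 0.5 in either pool, namely Wfs1, Opa1, Aifm1 and Timm8a1, and 0 of them were 2-fold apart, where 0.264% of the 3784 genes that passed were, so a count of 0 is near the background. In types Ia, Ib and Ic the same 4 passed and 0 were 2-fold apart, against 0.388%, 0.342% and 0.39% of genes. In type II only Tmprss3 and Opa1 passed and 0 were 2-fold apart, against 0.183%. All CKO stretches lay below both control stretches for 1 of 4 members, Wfs1, over all neurons, where 13.5% of genes did, and also for Wfs1 in types Ib and Ic. In type II they did for 1 of 2, Tmprss3, where 12.6% of genes did, and all lay above for Opa1 in types Ia and Ic. With so few members these counts cannot be told from the background. The median log2 ratio over all neurons was 0.06 for the 4 members that passed, beside -0.02 over all genes that passed.

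**Figure D5:**
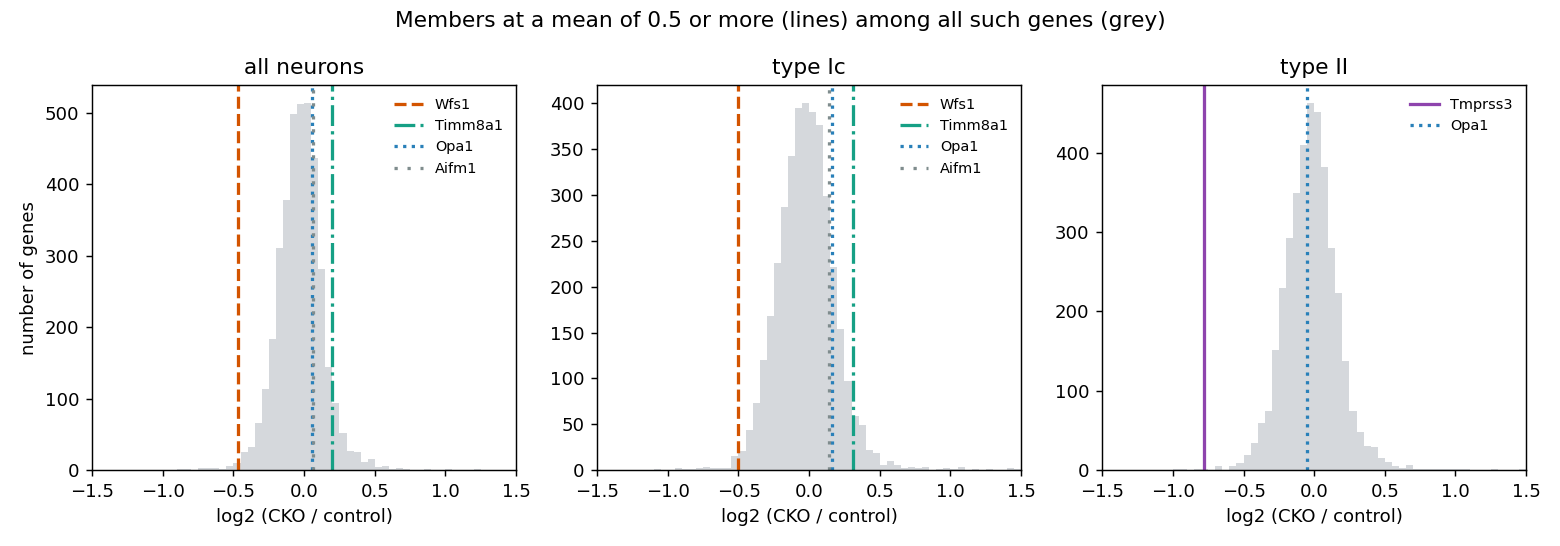
Histograms of log2 (CKO / control) over all genes at a mean of 0.5 or more (grey, y axis number of genes) for all neurons, type Ic and type II, with lines for the members that passed. Wfs1 lies at -0.47 and -0.51 in the first 2 panels and Tmprss3 at -0.78 in the last, and Timm8a1 lies at 0.20 and 0.31.

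Between classes the members differed more, as did genes at large. Type II over type I, 4 members passed in CKO and 0 were 2-fold apart, where 25.2% of 4251 genes were. Tmprss3, with a log2 ratio of 1.89 in CKO, was not counted there because its CKO type II mean of 0.274 missed the minimum of 0.5. In control 5 passed, 1 was at least 2-fold higher (Tmprss3) and 1 at least 2-fold lower (Wfs1, log2 -1.08), where 12.2% of 4369 genes were higher and 12.9% lower. Both passed only through the class where they were higher. Tmprss3 was at 0.542 in type II and 0.0026 in type I, and Wfs1 at 0.296 and 0.737. The minimum thus favoured a call for both, and the counts are given as values only. The other log2 ratios in control were -0.50 for Opa1, -0.76 for Aifm1 and -0.88 for Timm8a1, and in CKO -0.85 for Wfs1, -0.65 for Opa1, -0.75 for Aifm1 and -0.98 for Timm8a1. Type Ia over type Ic, 4 members passed in each genotype and 0 were 2-fold apart, where 2.01% of genes in CKO and 3.04% in control were. The median log2 ratio of type II over type I over all genes was 0.03 in CKO and 0.02 in control, so the mitochondrial members and Wfs1 lay below the middle of the genes in both.

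None of the pathway partners listed for the mitochondrial members was 2-fold apart between genotypes. Over all neurons only 0.264% of 3784 genes were, so a count of 0 here and in the lists below is near the background. Of the 10 mitochondrial import partners of Timm8a1, all 10 passed the mean of 0.5, 0 were 2-fold apart and the median log2 ratio was 0.02. Timm13, the protein with which it forms a complex, averaged 3.71 in CKO and 3.87 in control. Of 9 fusion and cristae genes related to Opa1, 7 passed with a median of 0.04, and Dnm1l, the fission GTPase, averaged 2.74 in CKO and 2.47 in control. Of 4 Aifm1 partners 3 passed with a median of 0.05, and Cycs, cytochrome c, averaged 4.83 in CKO type II cells and 4.48 in control type II cells, against 11.9 in CKO and 10.7 in control type Ic cells.

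Of 10 endoplasmic reticulum genes around Wfs1, 6 passed, 0 were 2-fold apart, the median log2 ratio was 0.07 and the lowest of the 6 was 0.03. Among the 4 under the minimum, Atf6, a sensor of unfolded proteins in the same membrane, averaged 0.361 in CKO and 0.386 in control, and was named after its values were seen. Hspa5, the chaperone BiP, averaged 4.64 in CKO and 3.48 in control, a log2 ratio of 0.41, and its CKO mean was above control in each class (3.76 and 2.89 in type Ia, 4.47 and 3.19 in type Ib, 4.77 and 3.43 in type Ic, 7.004 and 5.80 in type II of CKO and control). Among classes Hspa5 was highest in type II, where Wfs1 was lowest. Atp2a2, the calcium pump of the same membrane, averaged 2.36 in CKO and 2.08 in control type II cells, and 5.61 or more in every type I class.

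Of the 5 riboflavin and flavin genes, 2 passed and the median log2 ratio was -0.08, with Rfk, riboflavin kinase, at 1.104 in CKO and 1.15 in control. Of 8 type II serine protease genes related to Tmprss3, 5 were measured and 0 passed; Tmprss5, with 362 UMIs, averaged 0.0418 in CKO and 0.0664 in control type II cells, close to its 0.0447 and 0.0505 over all CKO and control neurons. Of the gasdermin genes only Dfna5, itself a deafness gene, was measured, at 0.0909 in CKO and 0.1004 in control. Of the 4 matrix genes with domains like those of Coch, 0 passed, and Vit, vitrin, averaged 0.0267 in CKO and 0.0575 in control.

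Of 20 further genes of auditory neuropathy or neuropathy with hearing loss, 17 were measured and 9 passed, 0 were 2-fold apart between genotypes and the median log2 ratio was -0.14. Nefl, the light neurofilament, averaged 46.6 in CKO and 36.3 in control, and Map1b, a microtubule protein, 43.1 in CKO and 42.3 in control. RNA of 8 Schwann and satellite cell markers reached 5 UMIs per 10000 in 49.9%, 64.8% and 47.1% of cells in CKO stretches 1, 3 and 4, against 49.0% and 71.3% of cells in control stretches 2 and 5.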

How the data were processed

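A matrix of natural log values for 14715 genes in 1954 cells was deposited by the authors together with a genotype per cell. Taking the exponential and subtracting 1 gave values whose total was 100000 for each cell, and 100% of nonzero entries corresponded to whole UMIs (tolerance 0.01), which were used as counts. Seurat, Cell Ranger and mm10 are named, without versions, in the submitters' processing notes, and how cells were chosen is not given in the sources used here.

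A level is the mean over cells of UMIs per 10000, and log2 ratios add 0.1 to each mean. Genes entered a count of 2-fold differences at a mean of 0.5 or more in either pool. Cells are not replicates, and with 1 pool per genotype no p-value was computed. Rate ratios and shares have exact 95% intervals (Poisson with conditional binomial, and Clopper-Pearson). Shares were also taken after thinning each cell to 10000 UMIs with a fixed seed, for which no cell was left out.

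The members and the gene lists were chosen with earlier results of these data known. The text names all 8 members, up to 4 genes of highest mean in each related list (some of them are not reported here), and for members with a mean of at least 0.2 and 2-fold between classes in control the 3 genes of most similar pattern; markers, Runx1 and genes of the Coch cell are also named, and the genes like Tmprss3, the sequence search and the counts of stretches that do not overlap were added after values were seen. Stretches were left out in turn, and the other alternatives were the pseudocount, the mean minimum, class limits, glial RNA, depth weighting and thinning. Python 3.11.15, numpy 2.4.6, pandas 2.3.3, scipy 1.17.1 and matplotlib 3.10.9 were used, and the scripts were tested on simulated data.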

Additional observations from a re-analysis of the deposited data

How the results depend on the processing

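Over 52 results and 626 alternatives, 522 values stayed within the counting spread of the main value and 104 moved; where the main log2 ratio was 0.1 or more in size, the sign changed in 13. For Tmprss3 in type II neurons, CKO over control, the log2 ratio of -0.78 was -0.28 with a pseudocount of 1 and -1.04 to -0.58 with 1 stretch left out. Its ratio of type II over type I became 0.35 in CKO and 0.62 in control with a pseudocount of 1, and 5.45 in control with 0.01. Its type II shares were 21.1% in CKO and 42.0% in control after thinning. For Coch over all neurons the ratio of 1.07 was 3.31 with a pseudocount of 0.01, 0.15 with 1, 0.0423 without stretch 1, 0.0272 without cells carrying glial RNA, 0.033 without the 1 cell and 0.0331 without the 2 cells low in neuronal RNA; leaving out these cells was chosen after seeing the data, and that cell lies in stretch 1 and carries glial RNA. For Wfs1 over all neurons the values were -0.54 with a pseudocount of 0.01, -0.20 with 1, -0.55 to -0.32 with 1 stretch left out, -0.54 without glial RNA, -0.38 after thinning and -0.32 with equal class weights; in type Ic they were -0.25 with a pseudocount of 1, -0.65 to -0.34 with 1 stretch left out and -0.70 without glial RNA. Type Ia over type Ic in control, Wfs1 was at -0.39 with a pseudocount of 1, -0.69 with class limits halved and -0.96 with them doubled, and Timm8a1 at 0.27 with a pseudocount of 1, 0.35 to 0.69 with 1 stretch left out and 0.42 without glial RNA. Counts of genes 2-fold apart between genotypes fell with a pseudocount of 1 to 2 of 10 over all neurons, 3 of 14 in type Ia, 1 of 13 in type Ib, 2 of 15 in type Ic and 2 of 7 in type II, and between type II and type I to 384 of 1070 in CKO and 387 of 1097 in control. With a mean minimum of 0.2 type Ib gave 24, and with no minimum 29, with 23 in type Ic and 11 in type II. Except for the named cells and the pseudocount, whose size sets how far low values are drawn together, the cause was not tested. No paired analysis was possible because the cells carry no sample or replicate number. Depth limits Dfnb59, with 6 UMIs in all, and Coch outside 1 cell.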

Other observations

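Deafness genes best known from hair cells gave low signals in these neurons, some of them in every class. Of 18 such genes 14 were measured, and 0 reached a mean of 0.5 in either genotype over all neurons. Lhfpl5, a subunit of the transduction complex, averaged 0.303 to 0.450 over the CKO classes and 0.309 to 0.400 over the control classes, and Myo6, an actin motor, 0.218 to 0.400 and 0.267 to 0.396 over those of CKO and control. Others differed between classes. Myo7a, the motor of hair bundles, averaged 0.299 in CKO and 0.254 in control type II cells, against at most 0.0167 in any type I class, while Tmc1, the transduction channel, gave 16 UMIs in all. Clrn1, a membrane protein of Usher syndrome, averaged 0.629 in CKO and 0.555 in control type II cells, and 0.453 and 0.528 in type Ic and 0.212 and 0.174 in type Ia cells of CKO and control. Espn, an actin-bundling protein, averaged 0 in CKO and 0.00311 in control type II cells and 0.507 in CKO and 0.369 in control type Ic cells.

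Among the auditory neuropathy genes, 2 stood higher in type II neurons by 2-fold or more in control. These were Fdxr, ferredoxin reductase, with 1.55 in CKO and 1.796 in control type II cells and a log2 ratio of type II over type I of 3.14 in CKO and 3.21 in control, and Abhd12, a lipid hydrolase, with 8.73 in CKO and 10.2 in control type II cells and ratios of 1.54 and 1.62 in CKO and control. Fdxr, Abhd12 and Myo7a fall outside the rule for named genes and were chosen after their values were seen.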
